A study of Caenorhabditis elegans with 14 samples.

Results

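Embryos of Caenorhabditis elegans that carry mutations in both met-2 and hpl-2 were compared with wild-type embryos by RNA sequencing. The comparison was defined by genotype: all 3 libraries labelled met-2 hpl-2 were set against all 3 wild-type libraries, 6 of the 14 libraries of the series. The double mutant carries met-2(n4256) and hpl-2(tm1489) on chromosome III. The growth protocol gives its strain as kept over the balancer hT2, a pair of rearranged chromosomes (I;III) marked with bli-4(e937), a let mutation (q782) and the transgene qIs48. The labels do not say whether embryos with a balancer chromosome were among those sampled. Beside it stood 4 libraries of the hpl-2 mutant, which carries hpl-2(tm1489) alone, as a second strain for comparison. The series also holds 4 libraries of hpl-2-FFAA(px112), which entered the fit but are not described here. Wild type was N2 Bristol. All embryos were early embryos from synchronised cultures grown at 20 °C. The labels call the source cells yeast, although organism and stage are given as C. elegans embryo. The extraction text speaks of a further exposure to stated temperatures, and how it applied to each group is not known here.

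MET-2 is a histone methyltransferase that places mono- and dimethyl groups on lysine 9 of histone H3, a mark of heterochromatin. HPL-2 is an HP1 protein, a class of chromatin proteins that bind methylated H3K9. In C. elegans these marks lie mainly on the outer arms of the autosomes and over repeats and silent genes, and both genes belong to the synMuv class of transcriptional repressors. The double mutant addresses what embryos transcribe when the HP1 protein is lost together with an enzyme that writes the mark it can bind.

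Depth differed: met-2 hpl-2 libraries had 14313366 to 14840992 counts in all, against 5846490 to 6032200 in wild type. A count of 3, the most that a count of 0 allows, stood for 0.217 to 0.219 CPM (counts relative to the library total, scaled with TMM factors) in met-2 hpl-2 and 0.494 to 0.509 CPM in wild type. Low transcripts were therefore measured more finely in the double mutant. At least 1 count was found for 15836 to 16297 genes in met-2 hpl-2 libraries, or 14323 to 14796 after random thinning to 5920703 counts each, against 13334 to 13379 genes in wild type. Levels below are TMM-normalised CPM, and "called" means a Benjamini-Hochberg adjusted p under 0.05 over all 9498 genes tested by the quasi-likelihood method of edgeR.

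Both mutated genes were low in the double mutant. The gene met-2 itself (WBGene00019883, on III, 8375300 to 8380848 of WBcel235, plus strand) stood at 31.3, 29.4 and 27.7 CPM in the met-2 hpl-2 libraries, against 297.1, 286.5 and 279.5 CPM in wild type. The gene hpl-2 (WBGene00001996, also on III, 10752195 to 10755530, minus strand) stood at 8.58, 10.4 and 11.1 CPM, against 89.8, 100.1 and 97.9 CPM in wild type. The groups did not overlap for either gene, and what was left amounted to 10.2% of wild type for met-2 and 10.5% for hpl-2. The log2 fold changes were -3.29 (SE 0.0497) for met-2 and -3.26 (SE 0.0885) for hpl-2 (edgeR, Benjamini-Hochberg adjusted p = 2.96e-19 for met-2 and 2.54e-15 for hpl-2). In the hpl-2 mutant, which carries the same hpl-2 allele, hpl-2 stood at 4.41 ± 0.693 CPM (SD, n = 4), or 4.6% of wild type. The double mutant was higher than the hpl-2 mutant for hpl-2 by 1.18 on the log2 scale (SE 0.14; edgeR, Benjamini-Hochberg adjusted p = 6.32e-07). The gene bli-4, which encodes a proprotein convertase of the cuticle and is mutated on the balancer, stood at 172.6 to 182.5 CPM in met-2 hpl-2, against 242.8 to 253.2 CPM in wild type, a log2 of -0.48 (SE 0.0529). The part of the balancer in this value was not tested.

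**Figure D1:**
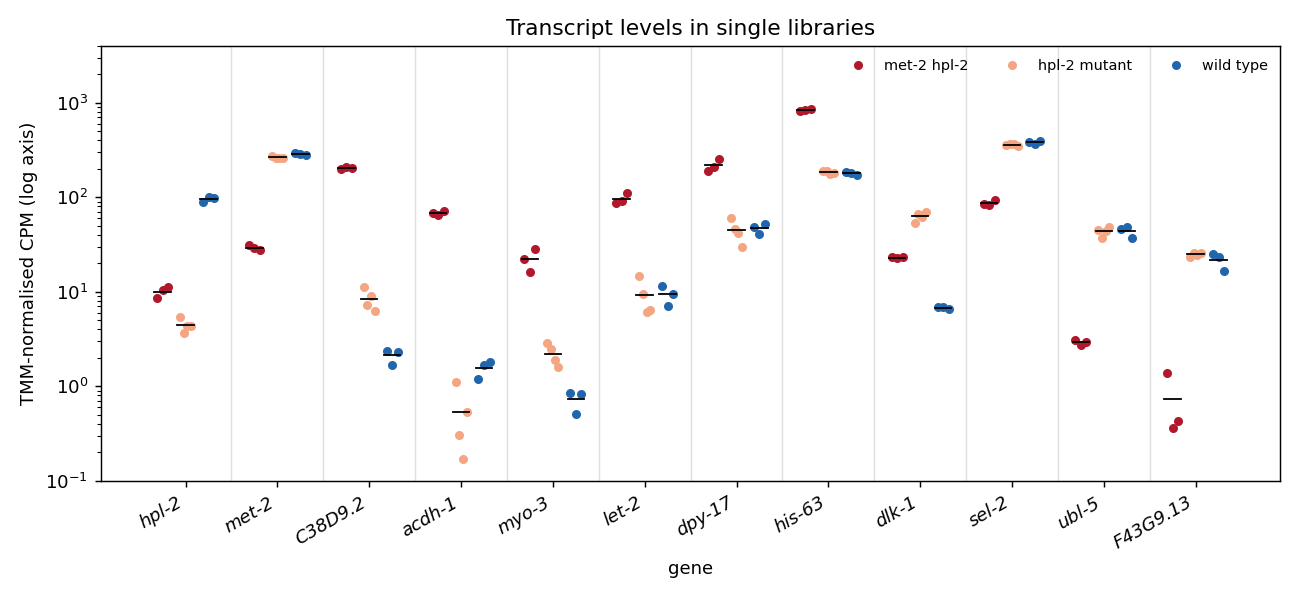
TMM-normalised CPM (log axis) of 12 genes in each met-2 hpl-2 library (3), hpl-2 mutant library (4) and wild-type library (3), with a black line at each group mean. C38D9.2, acdh-1, myo-3, let-2, dpy-17 and his-63 were highest in met-2 hpl-2, sel-2, ubl-5 and F43G9.13 lowest, and dlk-1 was highest in the hpl-2 mutant.

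Transcripts from every chromosome differed between the double mutant and wild type. Of 9498 genes tested 5514 (58.1%) were called, with 2725 (28.7%) higher and 2789 (29.4%) lower in met-2 hpl-2. Most of these differences were small: the median size of a called log2 fold change was 0.47. Among differences of at least 2-fold the balance was unequal, with 862 genes (9.08%) higher and 231 (2.43%) lower. The met-2 hpl-2 and wild-type libraries did not overlap for 6368 genes (67%). The median over all genes tested was 0.00 on the log2 scale. With scaling by library size alone, without TMM, the split was 2176 higher and 3592 lower, and the median of all genes was -0.09. The low-count filter was passed by 420 of the 9498 genes only because of the met-2 hpl-2 libraries. Without those genes 2414 were higher and 2787 lower of 9078. A fit that left them out gave 599 genes higher and 214 lower by at least 2-fold.

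The genes that rose most were close to silent in wild type, which follows in part from choosing them by fold change. C38D9.2 (chromosome V, 17567150 to 17571742 of WBcel235, plus strand) stood at 199.8, 211.4 and 201.9 CPM in met-2 hpl-2, against 2.38, 1.69 and 2.31 CPM in wild type. It was higher in every double-mutant library than in any hpl-2 mutant library. The hpl-2 mutant stood at 8.45 CPM on average, between the double mutant and wild type. The log2 fold change was 6.58 (SE 0.139, edgeR, Benjamini-Hochberg adjusted p = 6.79e-17).

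Transcripts of acdh-1 (chromosome I, 6497436 to 6499560, plus strand), an acyl-CoA dehydrogenase of the shunt that breaks down propionate, stood at 68.1, 65.6 and 71.4 CPM in met-2 hpl-2, against 1.19, 1.69 and 1.81 CPM in wild type. The log2 fold change was 5.44 (SE 0.178). The hpl-2 mutant lay on the other side of wild type, with 0.53 CPM on average. Its close relative acdh-2, which overlaps ins-13 on the same strand so that its counts are uncertain, gave 25.02 ± 3.82 CPM in met-2 hpl-2 and 1.84 ± 0.575 CPM in wild type (SD, n = 3 each; log2 3.75, SE 0.215). Of the 23 tested genes of propionate and acyl-CoA metabolism 8 were called higher and 8 lower (34.8% each, against 28.7% and 29.4% of all genes), with a median log2 of -0.10. The nuclear hormone receptor gene nhr-68, known from the response to propionate, rose by 1.22 (SE 0.171). The methionine synthase reductase gene mtrr-1 fell by 0.82 on the log2 scale (SE 0.0719).

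Transcripts of the cuticlin gene cut-2, of F41F3.3 and of ptr-4, a patched-related gene of the apical matrix, summed to 1 count each over all wild-type libraries. In met-2 hpl-2 they summed to 430, 371 and 281 counts. The ratio of cut-2 per library total was 186.4, with an exact 95% interval of 33.3 to 7381 that covers counting error only. For F41F3.3 the ratio was 160.9 (28.7 to 6370), and for ptr-4 121.8 (21.7 to 4829). The hpl-2 mutant averaged 0.0394 CPM for cut-2, 0.0385 for F41F3.3 and 0.492 for ptr-4. The 10 largest rises were picked among genes without overlap between met-2 hpl-2 and wild type, so non-overlap adds nothing for them. The rest of the 10 largest rises were ZK180.5 (log2 5.34, SE 0.673), the glucocerebrosidase-related gene gba-1 (5.07, SE 0.331), gei-13 (4.93, SE 0.303), myo-3 (4.90, SE 0.358) and F30H5.3 (4.80, SE 0.368). Their wild-type levels were all below 1 CPM, and gba-1 overlaps gba-2 on the other strand. Of the largest rises, cut-2, F41F3.3, ptr-4, ZK180.5, gei-13 and F30H5.3 passed the low-count filter only through the met-2 hpl-2 libraries. Such genes could hardly be called lower.

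Some genes with no counts in wild type had counts in every double-mutant library. In all, 5115 genes had 0 counts in every wild-type library. Of these 749 had at least 1 count in every met-2 hpl-2 library, and 293 still did after the double-mutant libraries were thinned to the wild-type total. At a minimum of 10 counts in every met-2 hpl-2 library there were 18 genes, and 6 after thinning. These 6 were lpr-4, a lipocalin of the apical matrix, the cuticle collagen gene col-165, C08F11.7, R07E3.6, K09E4.4 and the pseudogene WBGene00018662, named after their values were seen. Against a floor of 3 counts over the wild-type group (0.168 CPM), lpr-4 at 3.46 ± 0.931 CPM in met-2 hpl-2 (SD, n = 3) was at least 20.6-fold higher, and K09E4.4 at 1.60 ± 0.189 CPM at least 9.54-fold higher. C08F11.7 stood at 3.03 CPM in met-2 hpl-2 and at 2.09 CPM in the hpl-2 mutant. The other 5 stood at 0.0385 to 0.328 CPM in the hpl-2 mutant. After thinning, 0 genes had no counts in all met-2 hpl-2 libraries and at least 10 in every wild-type library.

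Genes of differentiated tissues were called higher in many cases, among them those of epidermis, muscle and basement membrane. Markers of each stage were summed per library. Late-embryo muscle markers summed to 53.3 to 80.97 CPM in met-2 hpl-2, 6.81 to 11.8 CPM in the hpl-2 mutant and 5.23 to 7.13 CPM in wild type. Late-embryo epidermis markers summed to 1047 to 1387 CPM in met-2 hpl-2, 197.4 to 367.0 CPM in the hpl-2 mutant and 366.9 to 418.6 CPM in wild type. Each list held 6 markers, of which 4 could be tested, and all of these were called higher. Among the muscle markers at least myo-2 passed the low-count filter only through the met-2 hpl-2 libraries, so its call adds little. The met-2 hpl-2 and wild-type libraries did not overlap for either sum (exact two-sided permutation test p = 0.1, the smallest that 3 against 3 allows).

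Markers of the youngest stages were level with wild type or lower. One-cell and oocyte markers summed to 7959 to 8577 CPM in met-2 hpl-2, against 8289 to 8594 CPM in wild type (exact permutation p = 0.8). Of 14 tested genes 4 were called lower, near the 29.4% of all genes, and 0 higher, against 28.7% of all genes. Early zygotic markers, switched on as the first lineages are specified, summed to 268.8 to 286.4 CPM in met-2 hpl-2, against 320.7 to 330.5 CPM in wild type, with 6 of 10 called lower and 0 higher. Both lists were detected in every library of both groups, which are labelled early embryo. Hatched-larva or adult epidermis markers summed to 5.82 to 8.33 CPM in met-2 hpl-2 and 3.88 to 5.26 CPM in wild type, and col-19, col-7, col-62 and col-144 were at 0 in every library of both groups. Adult intestine markers, the vitellogenin genes, summed to 3.42 to 4.91 CPM in met-2 hpl-2 and 2.47 to 3.37 CPM in wild type. Adult sperm markers summed to 1.17 to 1.95 CPM in met-2 hpl-2 and 0.169 to 0.989 CPM in wild type. In whole embryos, more cells of a type and more RNA per cell cannot be told apart, and the part of a difference in the age of the embryos was not tested.

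**Figure D2:**
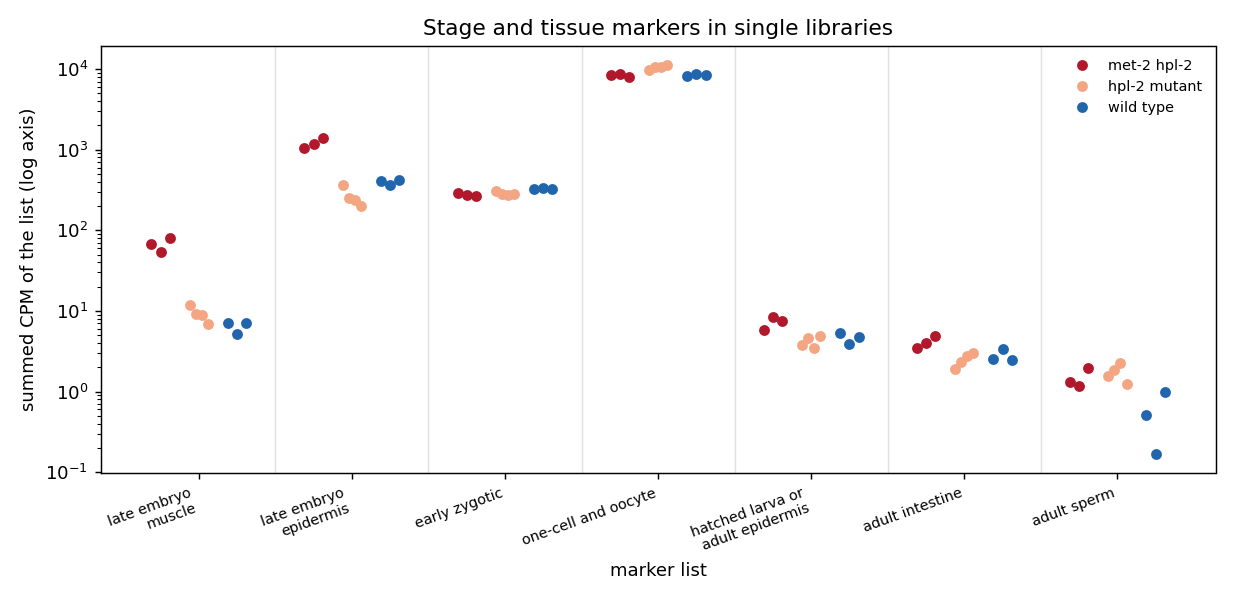
Summed CPM (log axis) of 7 marker lists in each met-2 hpl-2 (3), hpl-2 mutant (4) and wild-type library (3). Late-embryo muscle and epidermis markers were higher in all met-2 hpl-2 libraries than in any other, early zygotic markers were below all wild-type libraries, and one-cell and oocyte markers overlapped with wild type.

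Genes of the epidermis and its apical extracellular matrix rose in 32 of 40 tested cases, and 1 fell, against 28.7% higher and 29.4% lower among all genes. The median log2 fold change of the list was 0.94. Leaving out 2 genes that passed the filter only through the double mutant, 30 of 38 rose. The collagen gene dpy-17 stood at 191.5, 210.6 and 256.0 CPM in met-2 hpl-2, against 49.03, 41.1 and 52.6 CPM in wild type (log2 2.20, SE 0.203). The furrow collagen gene dpy-3 stood at 12.59 to 15.02 CPM in met-2 hpl-2, against 1.65 to 2.38 CPM in wild type (log2 2.79, SE 0.229). Neither gene overlapped between the groups, and in the hpl-2 mutant both averaged within 3 CPM of wild type, at 44.7 and 1.97 CPM.

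Further members called higher, chosen after their values were seen, were elt-1, the earliest specifier of the epidermis (log2 0.25), lin-26 (0.30), the nuclear receptor gene nhr-25 (0.91) and elt-3, a factor of differentiating epidermis (1.59). The junction genes ajm-1 (1.05) and dlg-1 (1.08) and the intermediate filament genes ifb-1 (1.56) and ifa-3 (3.67) were called higher as well, and were chosen in the same way. The only member called lower was bli-4.

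Cuticle collagens, the col genes, are mostly silent in early embryos, and 21 of the 156 in the table could be tested. Of these 14 were called higher and 1 lower, with a median of 1.36; without 6 that were tested only because of the double mutant, 8 of 15 were higher and the median was 0.70. Transcripts of col-76 stood at 12.7 ± 2.38 CPM in met-2 hpl-2 and 1.90 ± 0.785 CPM in wild type (SD, n = 3 each; log2 2.73, SE 0.314). The exception was col-123, at 3.25 ± 0.164 CPM in met-2 hpl-2 and 7.002 ± 1.65 CPM in wild type (log2 -1.1, SE 0.191); it overlaps catp-6 on the other strand.

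Body wall muscle genes rose in 26 of 38 tested cases and fell in 2, with a median of 0.54, and without the 6 tested only through the double mutant 20 of 32 rose and 2 fell. The myosin heavy chain gene myo-3 stood at 22.1, 16.08 and 28.2 CPM in met-2 hpl-2, against 0.848, 0.506 and 0.824 CPM in wild type. The hpl-2 mutant averaged 2.20 CPM. The giant protein titin, encoded by ttn-1, gave 31.4 to 43.9 CPM in met-2 hpl-2, against 3.20 to 5.11 CPM in wild type (log2 3.10, SE 0.188). All double-mutant libraries lay above all wild-type libraries for ttn-1. For myo-3 this was a condition of its choice among the largest rises.

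Other genes of this list had values over a wide range. Chosen after their values were seen, the paramyosin gene unc-15 had a log2 of 4.08, the myosin light chain genes mlc-1 and mlc-3 3.67 and 3.28, unc-54 2.90 and the tropomyosin gene lev-11 2.11. The integrin-linked genes pat-4 (-0.01) and pat-3 (0.00) were not called, and pat-6 (-0.30) was called lower, as was act-3 (-0.28, SE 0.0474). Actin genes are near-identical copies, so act-3 at -0.28 and act-4 at 1.64 are uncertain. The transcription factor genes of muscle fate, hlh-1 and unc-120, rose by 0.45 and 0.55.

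Basement membrane genes rose in 16 of 22 tested cases and none fell, with a median of 0.79. The type IV collagen gene let-2 stood at 86.2, 91.4 and 109.9 CPM in met-2 hpl-2, against 11.5, 7.08 and 9.56 CPM in wild type. This is a log2 of 3.35 (SE 0.315, edgeR, Benjamini-Hochberg adjusted p = 7.69e-08), with no overlap. The other type IV collagen gene, emb-9, rose by 3.07, the gene ost-1 for the matrix protein SPARC by 3.31, and the perlecan gene unc-52 by 2.48 (SE 0.163). Laminin genes rose less: epi-1 by 0.57, lam-1 by 0.41 and lam-2 by 0.66. Apart from let-2 and unc-52, these genes were chosen after their values were seen.

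Lists of other tissues held more higher than lower calls. Intestinal genes were higher in 8 of 14 cases and lower in 2; without the 3 tested only through the double mutant the counts were 6 and 2 of 11. The intestinal intermediate filament gene ifb-2, 1 of those 3, gave 4.31 ± 0.653 CPM in met-2 hpl-2 and 0.952 ± 0.356 CPM in wild type (SD, n = 3 each, log2 2.16, SE 0.299). The aspartyl protease gene asp-4 rose by 0.99 (SE 0.158). The GATA factor gene end-3, which acts at the start of endoderm specification, fell by 0.72 on the log2 scale (SE 0.199). Pharynx genes were higher in 6 of 11 cases and lower in 0 (5 and 0 of 9 without such genes). Among them were tbx-2 (1.03, SE 0.149) and the pharyngeal myosin gene myo-2 (1.93, SE 0.398), which was tested only through the double mutant. Neuronal genes were higher in 15 of 32 cases and lower in 2, with a median of 0.25. Homeobox genes were higher in 23 of 50 cases and lower in 9 (21 and 9 of 47 without such genes), with ceh-91 at 1.07 (SE 0.0764) and ceh-93 at -0.49 (SE 0.0615). Genes of cilia were higher in 7 of 20 cases (35%, against 28.7% of all genes) and lower in 3. Without those tested only through the double mutant the counts were 4 and 3 of 17. Their median of 0.36 was -0.20 under a stricter filter of 10 CPM in 3 libraries.

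Maternal and early zygotic lists had small median changes. Of 41 tested maternal genes 10 were called higher (24.4%) and 7 lower (17.1%), against 28.7% and 29.4% of all genes. Their median was 0.02, and none changed 2-fold. The cyclin B gene cyb-1 rose by 0.25 (SE 0.0365), and the polarity kinase gene par-4 fell by 0.45 on the log2 scale (SE 0.0509). Of 52 genes of early zygotic transcription and specification 13 were higher and 17 lower, with a median of -0.05. Here sdz-30 rose by 0.45 (SE 0.0434) and sdz-4 fell by 0.69 on the log2 scale (SE 0.0672). P granule and germ lineage genes were higher in 16 of 40 cases (40%) and lower in 9 (22.5%).

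**Figure D3:**
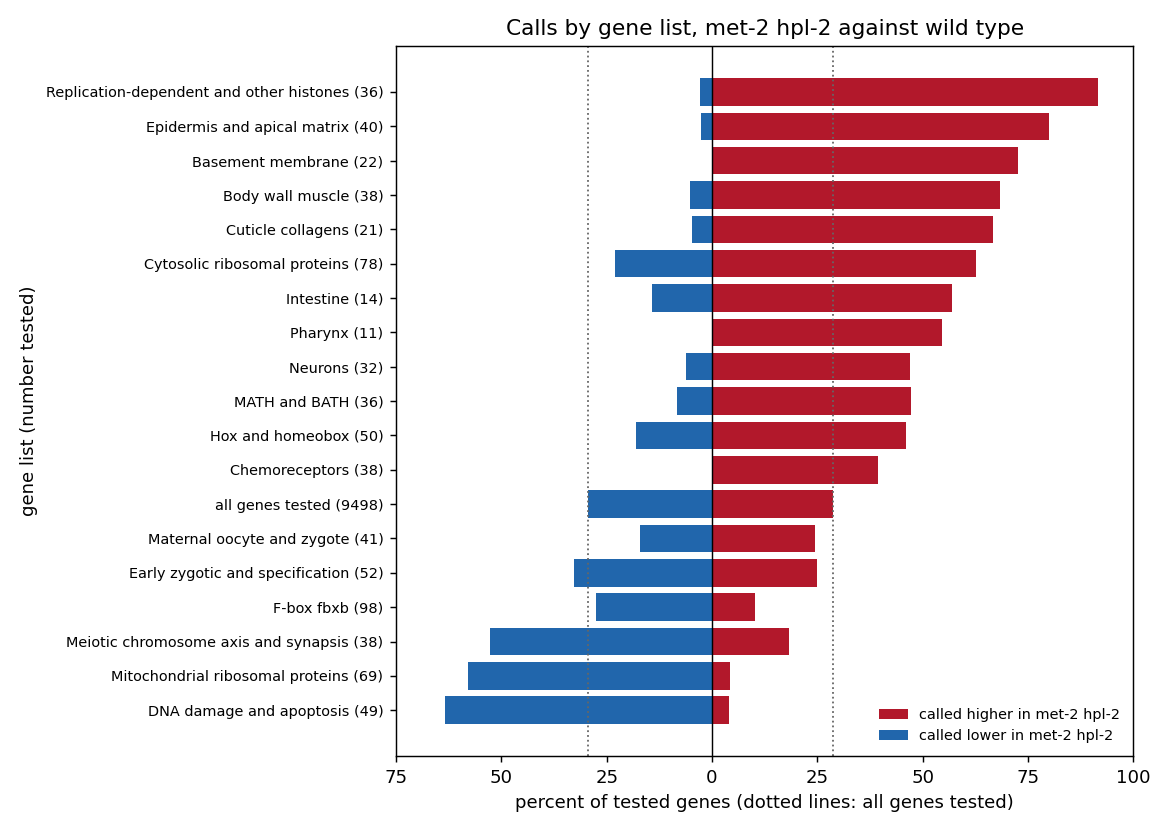
Percent of tested genes called higher (red, right) and lower (blue, left) in met-2 hpl-2 against wild type for 18 gene lists and for all genes tested, whose shares are repeated as dotted lines; the number tested stands beside each name. Histone, epidermis, basement membrane and muscle lists reached 68.4% to 91.7% higher, while DNA damage and mitochondrial ribosomal lists reached 58% to 63.3% lower.

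Histone genes rose together. Of 36 tested histone genes 33 were called higher and 1 lower, with a median of 0.69, and histone genes took 4.14% to 4.72% of all counts in met-2 hpl-2, against 2.74% to 2.79% in wild type. The core histone gene his-63 stood at 824.7, 841.3 and 866.2 CPM in met-2 hpl-2, against 183.9, 180.2 and 174.2 CPM in wild type (log2 2.23, SE 0.0542). Another core histone gene, his-5, stood at 80.1 to 88.7 CPM in met-2 hpl-2, against 5.09 to 6.26 CPM in wild type (log2 3.88, SE 0.143). Neither gene overlapped between the groups.

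The linker histone gene his-24 was among the most abundant transcripts that rose at least 2-fold, with 4278 ± 428.7 CPM in met-2 hpl-2 and 2116 ± 73.3 CPM in wild type (SD, n = 3 each; log2 1.02, SE 0.131). The core histone genes his-61 (1.03, SE 0.0553), his-64 (1.26, SE 0.0739) and his-2 (1.13, SE 0.0857) completed the 4 most abundant. Core histone genes exist in near-identical copies, so reads may be split among them and single values are uncertain. The histone gene called lower was his-71 (-0.50, SE 0.173), and it lost that call without wild-type replicate 3 or without met-2 hpl-2 replicate 2.

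Ribosomal protein genes split by compartment. Of 78 tested genes for the cytosolic ribosome 49 were called higher and 18 lower, with a median of 0.45. Of 69 for the mitochondrial ribosome 3 were higher and 40 lower, with a median of -0.33. The cytosolic gene rps-2 stood at 579.8 to 618.1 CPM in met-2 hpl-2, against 298.1 to 311.7 CPM in wild type (log2 0.99, SE 0.0441). The cytosolic genes rps-29 (317 bases) and rps-7 (651 bases, near the list median of 652) went the other way. Their log2 values were -2.01 (SE 0.0668) and -1.56 (SE 0.0685). Among the mitochondrial genes mrps-21 fell by 1.13 on the log2 scale (SE 0.128) and mrps-31 by 0.63 (SE 0.073). The shorter cytosolic genes were mixed: under 500 bases 11 of 22 were higher and 11 lower, and from 500 bases on 38 of 56 were higher and 7 lower.

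Genes of DNA repair and cell death fell by small amounts. Of 49 tested 31 were called lower and 2 higher, with a median of -0.26. The recombination gene brc-2, the counterpart of human BRCA2, stood at 16.14 ± 1.72 CPM in met-2 hpl-2 and 30.7 ± 1.07 CPM in wild type (SD, n = 3 each; log2 -0.93, SE 0.104). The gene brd-1, the counterpart of human BARD1, fell by 0.70 on the log2 scale (SE 0.0608). Both genes showed no overlap between the groups, and 0 members of the list changed 2-fold. The higher members were the cell death activator egl-1, at 3.73 ± 0.530 CPM in met-2 hpl-2 and 2.07 ± 0.228 CPM in wild type (log2 0.85, SE 0.322; named after its value was seen), and the checkpoint kinase gene chk-1 (0.14, SE 0.0413). The call of chk-1 was lost when libraries were scaled by size alone and without the low-count filter.

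Meiotic chromosome genes were lower in 20 of 38 cases (52.6%) and higher in 7 (18.4%), with a median of -0.21. Over all genes tested 29.4% were lower and 28.7% higher. The gene him-5, needed for crossovers on the X chromosome, stood at 3.20, 2.41 and 2.60 CPM in met-2 hpl-2, against 9.16, 9.95 and 9.56 CPM in wild type (log2 -1.80, SE 0.17). The gene syp-1 of the synaptonemal complex rose by 0.51 (SE 0.0635) and overlaps F13A7.14 on the same strand. Genes of Argonautes and small RNA pathways were lower in 21 of 54 cases (38.9%) and higher in 13 (24.1%, near the share of all genes). Transcripts of wago-4, an Argonaute of inherited RNA silencing, stood at 202.6, 211.4 and 205.8 CPM in met-2 hpl-2, against 85.2, 81.2 and 81.9 CPM in wild type (log2 1.32, SE 0.0617). The RNA-dependent RNA polymerase gene rrf-1 fell by 0.51 on the log2 scale (SE 0.0415).

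Chromatin factors other than the mutated ones changed little. Of 24 tested genes of H3K9 methylation and HP1 proteins, which include met-2 and hpl-2, 4 were called higher (16.7%) and 9 lower (37.5%). The shares of all genes were 28.7% and 29.4%. The SET domain gene set-6 stood at 12.57 to 14.6 CPM in met-2 hpl-2, against 29.7 to 33.4 CPM in wild type (log2 -1.22, SE 0.105), and was the only other member with a 2-fold difference. The second HP1 gene hpl-1 (-0.28) and the H3K9 methyltransferase gene set-25 (-0.05) were not called. The nuclear RNAi gene nrde-2 rose by 0.29 (SE 0.0453). Except for nrde-2, these genes were chosen after their values were seen.

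Among 23 synMuv genes, again with met-2 and hpl-2, 9 were called higher (39.1%) and 8 lower (34.8%), against 28.7% and 29.4% of all genes. The gene lin-15B, a repressor of germline genes in the soma, stood at 786.5, 782.5 and 801.9 CPM in met-2 hpl-2, against 515.6, 512.9 and 512.2 CPM in wild type (log2 0.62, SE 0.0323). It overlaps lin-15A on the same strand. The synMuv gene lin-8, chosen after its value was seen, was the only one of the list higher at least 2-fold (1.03, SE 0.0672). Of 12 genes of the NuRD and MEC complexes 6 were higher (50%) and 0 lower, led by egl-27 (0.34, SE 0.0531) and the Mi-2 gene let-418 (0.16, SE 0.0407). The call of let-418 was lost when libraries were scaled by size alone (0.08, edgeR, Benjamini-Hochberg adjusted p = 0.0981). It was also lost once the trend of fold change on gene width was removed (-0.04, edgeR, Benjamini-Hochberg adjusted p = 0.346). Of 18 genes of the nuclear envelope 9 were higher (50%) and 3 lower (16.7%). Among them were the pore gene npp-7 at 0.44 (SE 0.0442) and baf-1, which tethers chromatin to the envelope, at -0.50 (SE 0.0561).

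The lowest fold changes belonged almost all to genes of small width, as given with the deposited counts. The 10 lowest, met-2 and hpl-2 among them, held 8 genes with a width of 176 to 512 bases. This width is not the span on the chromosome. In WBcel235 zfr-1 (width 425) runs from 853451 to 872827 on chromosome I. W03A5.6 (width 360) runs from 5431379 to 5440640 on chromosome III. F43G9.13 (chromosome I, 8605263 to 8606574 of WBcel235, plus strand; 492 bases) stood at 1.38, 0.365 and 0.433 CPM in met-2 hpl-2, against 25.1, 23.1 and 16.6 CPM in wild type. The ubiquitin-like gene ubl-5, known from the mitochondrial stress response (330 bases), stood at 3.13, 2.70 and 2.96 CPM in met-2 hpl-2, against 46.5, 48.7 and 37.1 CPM in wild type. The log2 fold changes were -4.86 (SE 0.258) and -3.90 (SE 0.139), and the hpl-2 mutant was at 25.02 and 43.8 CPM. The 10 lowest were picked among genes without overlap between met-2 hpl-2 and wild type. The others were the ribosomal gene rpl-39 (247 bases, log2 -3.74, SE 0.227), W03A5.6 (360, -3.47, SE 0.227), WBGene00018597 (315, -3.40, SE 0.1), ostf-4 (176, -3.30, SE 0.276), zfr-1 (425, -3.12, SE 0.124) and K10B2.4 (512, -3.05, SE 0.234). Of these F43G9.13, rpl-39 and zfr-1 overlap another gene on the opposite strand.

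Among genes of at least 1000 bases other names led, and this set was chosen after the values were seen. The lowest after met-2 and hpl-2 was T07F8.4, with 1.53 to 2.53 CPM in met-2 hpl-2 against 9.56 to 12.98 CPM in wild type (log2 -2.49, SE 0.182). The gene sel-2 (chromosome III, 4596059 to 4612384, minus strand), a neurobeachin that dampens Notch signalling, stood at 85.7, 83.8 and 93.8 CPM in met-2 hpl-2, against 388.2, 371.0 and 394.1 CPM in wild type. Its log2 fold change was -2.13 (SE 0.0507), the hpl-2 mutant stood at 361.6 CPM, and mab-21 lies on the opposite strand. It was also among the 4 most abundant genes that fell at least 2-fold, with met-2, the germline translation factor gene iff-1 (-1.21, SE 0.0505) and tofu-6 (-1.05, SE 0.0542), which acts in making 21U-RNAs, the piRNAs of the worm.

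The cytochrome P450 gene cyp-25A3 (-1.99, SE 0.227), sipa-1 (-1.94, SE 0.173), spe-36 (-1.93, SE 0.162), plpp-1.3 (-1.85, SE 0.174), enee-1 (-1.79, SE 0.145) and lact-4 (-1.73, SE 0.137) followed. Of these spe-36 overlaps F40F11.3 on the same strand and F12F6.1 on the opposite strand. On the opposite strand plpp-1.3 overlaps rhgf-1, enee-1 overlaps F23F1.4 and lact-4 overlaps M05D6.3. For lact-4 the hpl-2 mutant overlapped with the double mutant and lay below wild type: 13.8 to 17.5 CPM in met-2 hpl-2, 12.5 to 20.03 CPM in the hpl-2 mutant and 44.7 to 55.5 CPM in wild type. For spe-36 and enee-1 the hpl-2 mutant stood at 14.5 and 22.9 CPM on average, near or above the wild-type means of 13.6 and 15.4 CPM.

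Gene width was related to fold change over the whole table, and the width given with the deposited counts was used. Under 500 bases 14.9% of 363 tested genes fell at least 2-fold, against 4.3% from 500 to below 1000, 1.67% from there to below 2000, 0.64% from there to below 4000 and 0.68% from 4000 bases on. With the double-mutant libraries thinned to the wild-type total the shares were 16.8%, 4.82%, 1.73%, 0.641% and 1.03%; thinning matched the totals and not the number of genes with a count. Of the 231 genes lower at least 2-fold, 143 (61.9%) were shorter than 1000 bases, as were 2434 of all 9498. Rises of at least 2-fold were most frequent among genes of at least 4000 bases, at 16.8% of 588. The median log2 fold change was -0.15 under 500 bases and 0.16 from 4000 bases on.

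Short histone genes ran against this gradient. Of 16 histone genes under 500 bases 15 were higher and 0 lower, and of the other 347 short genes 76 were higher and 126 lower, with a median of -0.18. Without histones, genes under 500 bases took 0.897% to 0.910% of counts in met-2 hpl-2, against 0.941% to 0.962% in wild type. Genes were also split into 3 equal groups by mean level over the 6 met-2 hpl-2 and wild-type libraries. Level and fold change thus rest on the same values. In the low group 36 of 218 under 500 bases fell at least 2-fold and 41% of genes of at least 4000 bases rose at least 2-fold. In the high group these were 0 of 44 and 4.3%, and there 15.9% of genes under 500 bases rose at least 2-fold, with a median of 0.42. With the trend on width removed, the medians of the epidermis (0.85), muscle (0.47), basement membrane (0.65), DNA damage (-0.35) and mitochondrial ribosomal (-0.30) lists kept their signs. The part of library preparation in the width gradient was not tested.

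**Figure D4:**
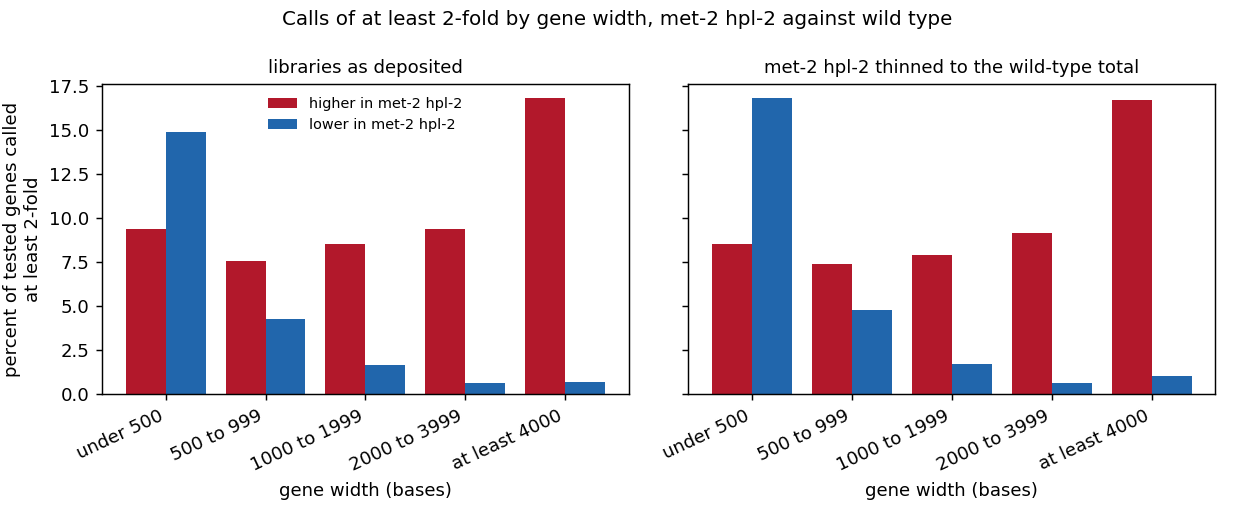
Percent of tested genes called at least 2-fold higher (red) or lower (blue) in met-2 hpl-2 against wild type, by gene width in bases, for the libraries as deposited (left) and with met-2 hpl-2 thinned to the wild-type total (right). Falls were most frequent under 500 bases, at 14.9% and 16.8%, and rises from 4000 bases on, at 16.8% and 16.7%.

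Arms and centres of autosomes differed in the balance of calls; each autosome was cut into 3 equal lengths, with the arms outside. On arms 31.2% of 4853 tested genes were higher and 27.2% lower, with a median of 0.03. In centres 22% of 3353 were higher and 36.5% lower, with a median of -0.08. Rises of at least 2-fold made up 10.5% on arms and 5.52% in centres, and falls of that size 2.39% and 2.54%. For all calls, higher and lower, the same order of shares was found on each autosome. Rises on arms lay between 28.1% (III) and 33.8% (I) and in centres between 19.3% (I) and 23.9% (IV). Falls of at least 2-fold were more frequent on arms than in the centre on II (2.68% and 2.17%) and V (3.21% and 2.07%). In the 3 groups by mean level, the arm and centre shares of higher genes were 38.2% and 26.5% (low), 22.7% and 13.3% (middle) and 32.6% and 26% (high).

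The arms' share of autosomal counts was 52.7% in all 3 double-mutant libraries (52.66% to 52.73%), against 52.25% to 52.38% in wild type (exact two-sided permutation p = 0.1, the smallest possible). The difference of 0.37 percentage points became 0.83 with only genes of at least 1000 bases and 0.98 without the 100 most abundant genes.

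The X chromosome held a larger share of rises than any autosome. Of 1122 tested X-linked genes 407 (36.3%) were higher and 217 (19.3%) lower, with a median of 0.12, and the autosome medians lay between -0.06 (III) and 0.02 (V). X-linked genes took 7.92%, 8.13% and 8.52% of counts in met-2 hpl-2, against 7.05%, 6.96% and 7.15% in wild type (exact two-sided permutation p = 0.1). The groups did not overlap, and in the hpl-2 mutant the share was 5.69% to 6.29%, below wild type. In the high group by mean level 128 of 246 X-linked genes were higher and 30 lower. Dosage compensation and sex determination genes were higher in 6 of 20 cases and lower in 5, near the 28.7% and 29.4% of all genes. Among them were dpy-21 at 0.48 (SE 0.0513) and tra-2 at -0.25 (SE 0.0439).

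Genes of the mitochondrial genome took 3.18% to 3.44% of counts in met-2 hpl-2, against 3.98% to 4.11% in wild type, without overlap (exact two-sided permutation p = 0.1). Of the 12 tested there 8 were called higher and 3 lower. Without the 100 most abundant genes of the table the difference in share was -0.019 percentage points. Of tested genes annotated as pseudogenes 39.8% were higher and 10.6% lower, with a median of 0.37. Around met-2, within 250 kb, 11 of 76 genes were higher (14.5%) and 32 lower (42.1%). The centre of chromosome III, where met-2 lies, had 22.1% higher and 38.3% lower. Around hpl-2 the counts were 24 (32.4%) and 17 (23%) of 74, against 28.1% and 31.9% on the arms of chromosome III. Over all genes tested the shares were 28.7% and 29.4%. The strain is kept over a balancer of this chromosome, and effects of flanking sequence, balancer and mutation cannot be told apart there.

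**Figure D5:**
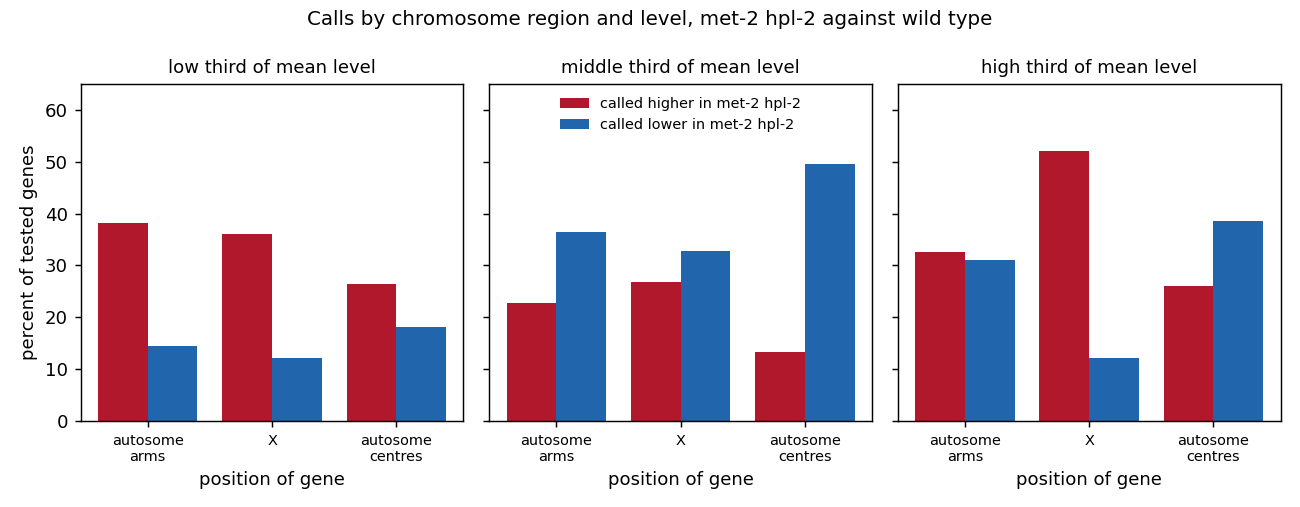
Percent of tested genes called higher (red) or lower (blue) in met-2 hpl-2 against wild type on autosome arms, on X and in autosome centres, in 3 equal groups of genes by mean level. Higher calls were more frequent on arms than in centres in each group, and 52% of X-linked genes of the high group were higher.

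Large families of genes behaved unequally. MATH and BATH domain genes, known as adaptors that bring proteins to ubiquitin ligases, were higher in 17 of 36 cases and lower in 3; without 5 tested only through the double mutant the counts were 13 and 3 of 31. Here math-18, itself tested only through the double mutant, gave 4.09 ± 0.342 CPM in met-2 hpl-2 and 0.337 ± 0.296 CPM in wild type (SD, n = 3 each, log2 3.55, SE 0.416). The gene bath-27, which overlaps lido-14 on the same strand, fell by 2.09 on the log2 scale (SE 0.308). Of the F-box genes, which serve a similar role, fbxa genes were higher in 15 and lower in 5 of 44 cases, or 12 and 5 of 39 without genes tested only through the double mutant, with a median of 0.02. Of 98 fbxb genes 10 (10.2%) were higher and 27 (27.6%) lower, the second share near the 29.4% of all genes, with a median of -0.07. The fbxc genes gave 5 and 10 of 31. Members of these families resemble each other closely, so counts of single genes are uncertain.

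Of 1294 chemoreceptor genes 38 could be tested; 15 were higher and 0 lower, and without 7 tested only through the double mutant 9 were higher and 0 lower of 31. The strongest call was srh-71, at 5.79 ± 0.360 CPM in met-2 hpl-2 and 1.79 ± 0.403 CPM in wild type (log2 1.69, SE 0.221). Nuclear hormone receptor genes lay at the background, with 24 higher and 27 lower of 108 (22 and 27 of 102 without those tested only through the double mutant). Glutathione S-transferase genes were lower in 5 and higher in 1 of 11 cases, led by gst-7 (-0.79, SE 0.0732), with gst-20 (1.09, SE 0.119) as the exception. The 3 called inducible heat shock genes of 5 tested were lower, among them hsp-16.41 with 2.18 to 3.83 CPM in met-2 hpl-2 against 9.44 to 16.12 CPM in wild type (log2 -2.12, SE 0.284).

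The hpl-2 mutant allows a second contrast that leaves out wild type but shares the double-mutant libraries. Against it 6765 of 9498 genes (71.2%) were called in met-2 hpl-2, with 3420 (36%) higher and 3345 (35.2%) lower. The log2 differences from the hpl-2 mutant were 4.59 for C38D9.2 (SE 0.097), 6.95 for acdh-1, 3.3 for myo-3, 3.36 for let-2, 2.28 for dpy-17 and 2.20 for his-63. Each was called, and in each the 3 double-mutant libraries lay above the 4 hpl-2 mutant libraries. For ubl-5 and sel-2 the differences were -3.89 and -2.04.

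Not every gene that was higher than in wild type was highest in the double mutant. The kinase gene dlk-1, which starts axon regeneration in neurons, stood at 23.2, 22.7 and 23.1 CPM in met-2 hpl-2, 53.2 to 69.7 CPM in the hpl-2 mutant and 6.96, 6.91 and 6.59 CPM in wild type. The 3 groups did not overlap. The double mutant was higher than wild type by a log2 of 1.75 (SE 0.185) and lower than the hpl-2 mutant, with a log2 of -1.45 (edgeR, Benjamini-Hochberg adjusted p = 7.4e-09). C55C3.3, chosen after its values were seen, stood at 6.14 to 9.36 CPM in met-2 hpl-2, 28.6 to 38.1 CPM in the hpl-2 mutant and 0 to 1.18 CPM in wild type (log2 3.76 over wild type and -2.07 against the hpl-2 mutant). The ciliary gene dyf-3 stood at 6.15 ± 0.920 CPM in met-2 hpl-2, 7.32 CPM in the hpl-2 mutant and 0.448 ± 0.196 CPM in wild type. For dyf-3 the direct difference between the mutants was -0.26 on the log2 scale and was not called (edgeR, Benjamini-Hochberg adjusted p = 0.16).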

How the data were processed

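The authors deposited raw counts of 20392 genes in 14 libraries, with the width of each gene; all sample columns were used. Per the labels' protocols, ribosomal RNA was removed and stranded libraries were made. The submitters' processing notes name Trimmomatic 0.39 and the build ce10. Aligner, counting program and use of strand were not given in the sources used here. Therefore counts of overlapping and antisense genes and of near-identical copies are uncertain. Overlaps are mentioned for some of the named genes and not for all that have them. Symbols and positions came from an annotation of WBcel235, in which 19870 identifiers were found, and were not converted to ce10. Rates in CPM, fold changes and shares were computed from the deposited counts.

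Groups followed the genotype in the labels. The 14 libraries of 4 groups entered a single edgeR 4.0.16 fit under R 4.3.3 (its low-count filter, TMM, quasi-likelihood test, Benjamini-Hochberg adjustment over 9498 genes, called under 0.05). The 4 groups, hpl-2-FFAA included, shared the filter, the TMM scaling and the dispersion. The common dispersion had a square root of 5.34%. SE was taken as the absolute log2 fold change over the root of F. Whether replicates came from separate cultures is not stated, so p-values reflect the spread between these libraries, which may be technical. Replicates were compared by chi-square tests on genes whose counts summed to 20 or more; every pair differed beyond sampling noise (chi-square per degree of freedom 2.82 to 6.68 in met-2 hpl-2 and 1.17 to 1.28 in wild type). Intervals and floors cover counting error only. The steps were checked on simulated data.

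The comparison, the 46 gene lists and the tests were chosen with earlier results of these data known, and lists are described by counts and medians without a test. Genes named are the mutated genes, bli-4, the 10 largest rises and 10 largest falls among called, non-overlapping genes that reached 5 CPM in the higher group, the 4 most abundant of each direction past 2-fold, and from each list the 2 called members of smallest adjusted p with 1 in the other direction. Other names are said to be chosen after their values were seen. Lists of major sperm proteins and of mitochondrially encoded genes had no tested member under their symbols, and the vitellogenin list had 1, which was not called. Alternatives were other scaling, other filters, DESeq2 1.42.0, thinning, removal of the trend on width, fewer groups and leaving out each replicate.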

Additional observations from a re-analysis of the deposited data

Results flagged for a closer look

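In the hpl-2 mutant a single library stood apart from the other 3 for cut-2 and for F41F3.3. The gap of that library to the nearest other made up the whole range of the group in both (a ratio of 1), since the other 3 libraries had 0 counts and it had 0.158 CPM for cut-2 and 0.154 CPM for F41F3.3, less than the level of 3 counts. The ratio is 1 whenever a single library has any count, so the rate of about 1 in 20 groups that chance gives for measured levels is not a guide here. In all 28 values of the hpl-2 mutant were looked at in this way, and met-2 hpl-2 and wild type, with 3 libraries each, were not tested in this way.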

How the results depend on the processing

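Counts of genes called at all in either direction stayed within 1.5 times under every setting run, including DESeq2, thinning and leaving out each replicate. With the replicate block 2718 genes were higher and 2763 lower than wild type. The replicate numbers did not pair the samples, since deviations of same-numbered libraries correlated at -0.0244, -0.0128 and 0.00201; no named gene changed its call under the block. Counts past 2-fold moved. Genes at least 2-fold higher than wild type numbered 1693 without a low-count filter and 258 at 10 CPM in 3 libraries; those 2-fold lower numbered 120 at that filter and 90 among genes of at least 1000 bases. Against the hpl-2 mutant these were 1893 and 488 higher, and 173 and 145 lower. Fewer genes are tested under the strict filter and the width limit, by construction. Without the genes that passed the filter only through met-2 hpl-2 libraries, an alternative chosen after seeing the data, no count moved by over 1.5 times.

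The median log2 fold change under 500 bases was -0.242 with library size alone, -0.118 with the strict filter, -0.136 after thinning, -0.0627 with only the groups compared, and -0.139 to -0.107 without single replicates. From 500 to below 1000 bases it was -0.044 with RLE size factors, -0.139, -0.0818, -0.0635 and -0.0321 under those settings, and -0.0571 to -0.0459 without single replicates. From 1000 to below 2000 bases it was -0.0143 with RLE, -0.11 with library size alone, -0.0399 with the strict filter, -0.0243 after thinning, and -0.0268 to -0.0187 without single replicates. From 2000 to below 4000 bases it was 0.0441 with RLE and -0.0509 with library size alone, and from 4000 bases 0.0778 with library size alone. The difference in arm share was 0.833 among genes of at least 1000 bases and 0.978 percentage points without the 100 most abundant genes, where the mitochondrial difference was -0.0193.

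Of 730 list medians under alternatives 26, from 12 lists, turned sign, and 22 of these belonged to lists whose median lay within 0.1 of 0 on the log2 scale. The other 4 were cilia (-0.20, strict filter) and the intracellular pathogen response (1.30 unfiltered, 0.57 strict, 0.13 with only the groups compared). The value of let-418 turned to -0.037 with the width trend removed. The cause was not tested. Beside those 4, 169 list medians moved by more than 1 replicate SD and 557 by less; among values of named genes 30 lost and 13 gained a call. The calls of ugt-61, gcy-28, his-71 and spe-39 were each lost without some replicates, and that of spe-39 also under RLE, both other filters, DESeq2 and thinning, which also took that of ugt-61.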

Other observations

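Further groups were measured that the comparison above leaves out. Over all genes tested 28.7% were called higher and 29.4% lower. Immune effector genes were called higher in 7 of 10 cases and lower in 1, with a median log2 of 0.59, among them irg-7 at 5.69 ± 0.868 CPM in met-2 hpl-2 and 0.838 ± 0.288 CPM in wild type (SD, n = 3 each; log2 2.74, SE 0.294). Without the 2 tested only through the double mutant, irg-7 being 1 of them, the counts were 5 and 1 of 8. C-type lectin genes were higher in 7 of 25 cases (28%, near the share of all genes) and lower in 2 (8%). Without those tested only through the double mutant the counts were 3 and 2 of 20. Genes of the intracellular pathogen response gave 2 higher and 2 lower of 8 (25% each), with pals-26 at 0.90 (SE 0.146) and drh-1 at -0.37 (SE 0.0713). Short-chain dehydrogenase genes gave 6 and 6 of 22 (27.3% each, near the shares of all genes). Among them dhs-8 stood at 11.9 to 13.2 CPM in met-2 hpl-2, against 32.6 to 41.9 CPM in wild type (log2 -1.54, SE 0.0981). Genes for guanylyl cyclases were higher in 5 of 8 cases and lower in 1, with the oxygen sensor gene gcy-35 at 25.6 ± 2.08 CPM in met-2 hpl-2 and 10.1 ± 1.92 CPM in wild type (log2 1.34, SE 0.12).

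Spermatogenesis genes were higher in 4 of 8 cases and lower in 1, with spe-15 at 2.34 (SE 0.163) and spe-6 at 2.43 (SE 0.223) on the log2 scale, while the summed major sperm protein genes lay below 2 CPM in every library of both groups. Wnt pathway genes were higher in 8 of 25 cases (32%, against 28.7% of all genes) and lower in 4 (16%, against 29.4%). The Nemo-like kinase gene lit-1 rose by 0.69 (SE 0.0617) and the Frizzled gene mom-5 fell by 0.40 on the log2 scale (SE 0.0403). Notch pathway genes were lower in 6 of 17 cases and higher in 2. Among them pen-2, a subunit of gamma-secretase, was at -1.18 (SE 0.132) and the ligand-family gene dsl-6 at 4.25 (SE 0.62). Without dsl-6, which was tested only through the double mutant, the counts were 6 and 1 of 16. Constitutive chaperone genes gave 8 higher and 8 lower of 27 (29.6% each), near the 28.7% and 29.4% of all genes. They were led by hsp-75 (-0.60, SE 0.0823), with hsp-12.1 (5.36, SE 0.697, 1 wild-type count in all) in the other direction. Without hsp-12.1, which was tested only through the double mutant, the counts were 7 and 8 of 26. Cytochrome P450 genes gave 4 higher and 4 lower of 20, but 2 and 4 of 18 without genes tested only through the double mutant. UDP-glucuronosyltransferase genes gave 8 and 5 of 35, and 5 and 5 of 32 without such genes, among them ugt-50 at 1.36 (SE 0.197).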
